A study of Trametes sanguinea with 15 samples.

Results

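A set of 79 gene models of Pycnoporus sanguineus, a white-rot basidiomycete, had its lowest transcript levels on Avicel in every library and at least 2-fold higher mean levels on each of the other 4 carbon sources. The 79 models were selected on measured values, out of the 11782 gene models in the normalised table (0.671%) and the 14165 in the count table. A gene model was taken where the lowest of its mean levels on maltose, aspen, wheat straw and xylan-galactomannan was at least 100 normalised counts and at least 2 times its Avicel mean, where its highest Avicel library lay below its lowest library on any other carbon source, and where its largest group mean was under 2.5 times the second largest. Another 4 gene models were left out by name. The difference between Avicel and the other groups therefore chose the set, and it is described here without a test. A normalised count is the deposited count divided by a size factor per library.

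The strain was CIRM-BRFM 1264, a single isolate, so every library shares its genotype. Mycelium was grown in shaken liquid culture at 30 °C and was sampled on day 3, and polyadenylated RNA was sequenced, with 3 libraries per carbon source. The maltose cultures were supplied with 20 g/l of the sugar. All others had 2.5 g/l of it together with 15 g/l of aspen, wheat straw, Avicel or xylan-galactomannan, so the Avicel cultures shared their maltose supply with 3 of the 4 groups that lay above them. Independent cultures are described for every carbon source except xylan-galactomannan, for which no such statement was found and where p-values measure the spread between libraries that may be technical.

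Avicel is a purified, microcrystalline cellulose, a chain of glucose units packed into crystals. Maltose is a soluble sugar of glucose units that fungi take up readily. Aspen wood and wheat straw are complete plant cell walls in which cellulose is embedded in hemicelluloses and lignin, and xylan and galactomannan are hemicelluloses without crystalline order. White-rot fungi secrete hydrolases and oxidases that open these polymers and import the released sugars, and they express different sets of these genes according to the carbon source. Avicel is commonly used as a model substrate to bring out the genes that act on cellulose, and the 79 gene models here are among those that stood lowest on it.

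The sources used here give no function for any of the 79 gene models. Annotation in the study's tables reached 96 genes, and 0 of these were in the set. Of the 96, 2 met every condition and were left out by name, so the 0 follows from that exclusion. No identifier of the count table (0 of 14165) matched the reference gene table, so the members are given by their model number and by the length of the model. Members were 288 to 3183 bases long, with a median of 1236 bases against 1278 bases for all models in the normalised table. The strand setting of the read counting was not given, so transcripts from overlapping or antisense models cannot be told apart.

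Together the 79 gene models took 0.264 ± 0.0169% of all counts in the Avicel cultures (SD, n = 3). Their share was 1.86 ± 0.671% on maltose, 1.91 ± 0.0703% on aspen, 1.66 ± 0.194% on wheat straw and 1.87 ± 1.23% on xylan-galactomannan, with n = 3 in each group. These are shares of deposited counts and are not scaled by the size factors, which did not follow the totals. The size factor was 1.03 for Avicel 1, with 50428442 counts, and 1.45 for aspen 1, with 39810090. The libraries of xylan-galactomannan were the least alike, at 1.14%, 3.29% and 1.18% for replicates 1, 2 and 3. Without the most abundant member, model 1578428, the shares were 0.238% on Avicel and 1.36 to 1.76% on the other carbon sources. Total counts ranged from 24209984 to 50428442 per library, and the lowest deposited count of any member in an Avicel library was 11.

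**Figure D1:**
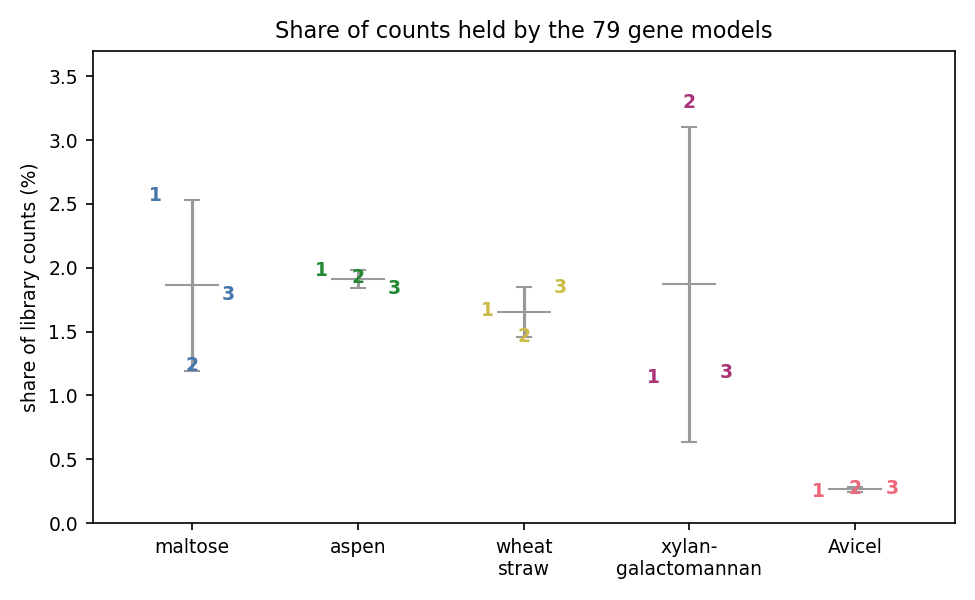
Share of each library's counts held by the 79 gene models (y axis, percent) by carbon source (x axis). Each digit is a library, placed at its value and named by its replicate number, and the grey dash and bar are the mean ± SD of 3 libraries. The Avicel libraries lie at 0.245 to 0.275% and the other 12 at 1.14 to 3.29%, with xylan-galactomannan 2 the highest.

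Some libraries stood apart from their group over all gene models, and this touches the values below. Over the 9011 gene models whose lowest mean outside Avicel was at least 100 normalised counts, the root-mean-square log2 distance of a library to the other libraries of its group ran from 0.29 to 0.84. It was largest for xylan-galactomannan 2 (0.84), Avicel 1 (0.77) and maltose 3 (0.71). The same distance over the 79 members was larger in every library, from 0.44 to 1.63, and again largest for xylan-galactomannan 2. The part of these libraries in the results was not tested beyond the values given with and without them.

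The size of the set depended on Avicel 1. Without this library the same conditions gave 132 gene models, of which 70 were among the 79. The remaining 9 members missed the ratio of 2, while all 79 kept both remaining Avicel libraries below the other 12. Without xylan-galactomannan 2 there were 67 gene models, 66 of them shared. The library most often lowest among the Avicel cultures was also Avicel 1, in 43 of the 79 members, although it was the highest in 30.

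Each condition set aside a different number of gene models. The floor of 100 was met by 9011 gene models, the floor and the ratio by 134, and the condition on single libraries in addition by 99. The full set of conditions was met by 81, of which 2 were among the models left out by name. A further 184 gene models failed on the ratio alone, 27 on the single libraries alone, 18 on the largest group mean alone and 16 on the floor alone. The same conditions turned towards another group gave 109 gene models lowest on maltose, 366 on aspen, 34 on xylan-galactomannan and 22 on wheat straw.

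The gene models nearest to each threshold were as follows. At the ratio of 2, models 1672687 (a ratio of 2 after rounding) and 1591457 (2.04) lay just inside, and 1566831 (1.97) and 1589051 (1.97) just outside. At the floor, the lowest mean outside Avicel was 149 normalised counts for both 1608286 and 540742 inside, against 97.2 for 1675498 and 94.5 for 1611669 outside. At the limit on the largest mean, which had to be under 2.5 times the second, models 1685267 (2.49) and 1681002 (2.39) were inside and 1609421 (2.58) and 1596761 (2.61) outside. The lowest library outside Avicel was 1.05 times the highest Avicel library for 1563146 and 1.06 times for 1600249, and 0.993 times for 1593569 and 0.967 times for 1596795, which were outside.

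Of the 4 gene models left out by name, 1742239 (assigned to a cytochrome P450 group, KOG0156) and 1621676 (assigned to a group of permeases, KOG2533) met every condition. Their lowest means outside Avicel were 4.81 and 2.64 times the Avicel mean. Model 1560767, assigned to the laccase-type multicopper oxidases, failed because its aspen mean was 2.78 times the second largest. Model 1609029, a glycoside hydrolase of family GH92, failed because its maltose mean, 780 normalised counts, was below its Avicel mean of 829.

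Among the members the lowest mean outside Avicel was 2 to 7.22 times the Avicel mean, with a median of 2.71. The ratio was at least 4 in 17 members, at least 3 in 31 and under 2.5 in 27. Leaving out 1 library moved the ratio by more than 1.5 times in 18 members, in 10 of them without xylan-galactomannan 2, in 5 without Avicel 1 and in 3 without maltose 1. By carbon source, the median fold over Avicel was 5.58 on xylan-galactomannan, 5.41 on aspen, 4.14 on maltose and 3.34 on wheat straw. The value for xylan-galactomannan fell to 3.94 without xylan-galactomannan 2. In the fit of all gene models with edgeR, members were lower on Avicel by a median log2 fold change of -2.50 against xylan-galactomannan, -2.46 against aspen, -2.07 against maltose and -1.76 against wheat straw, with standard errors of single members from 0.16 to 1.18.

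**Figure D2:**
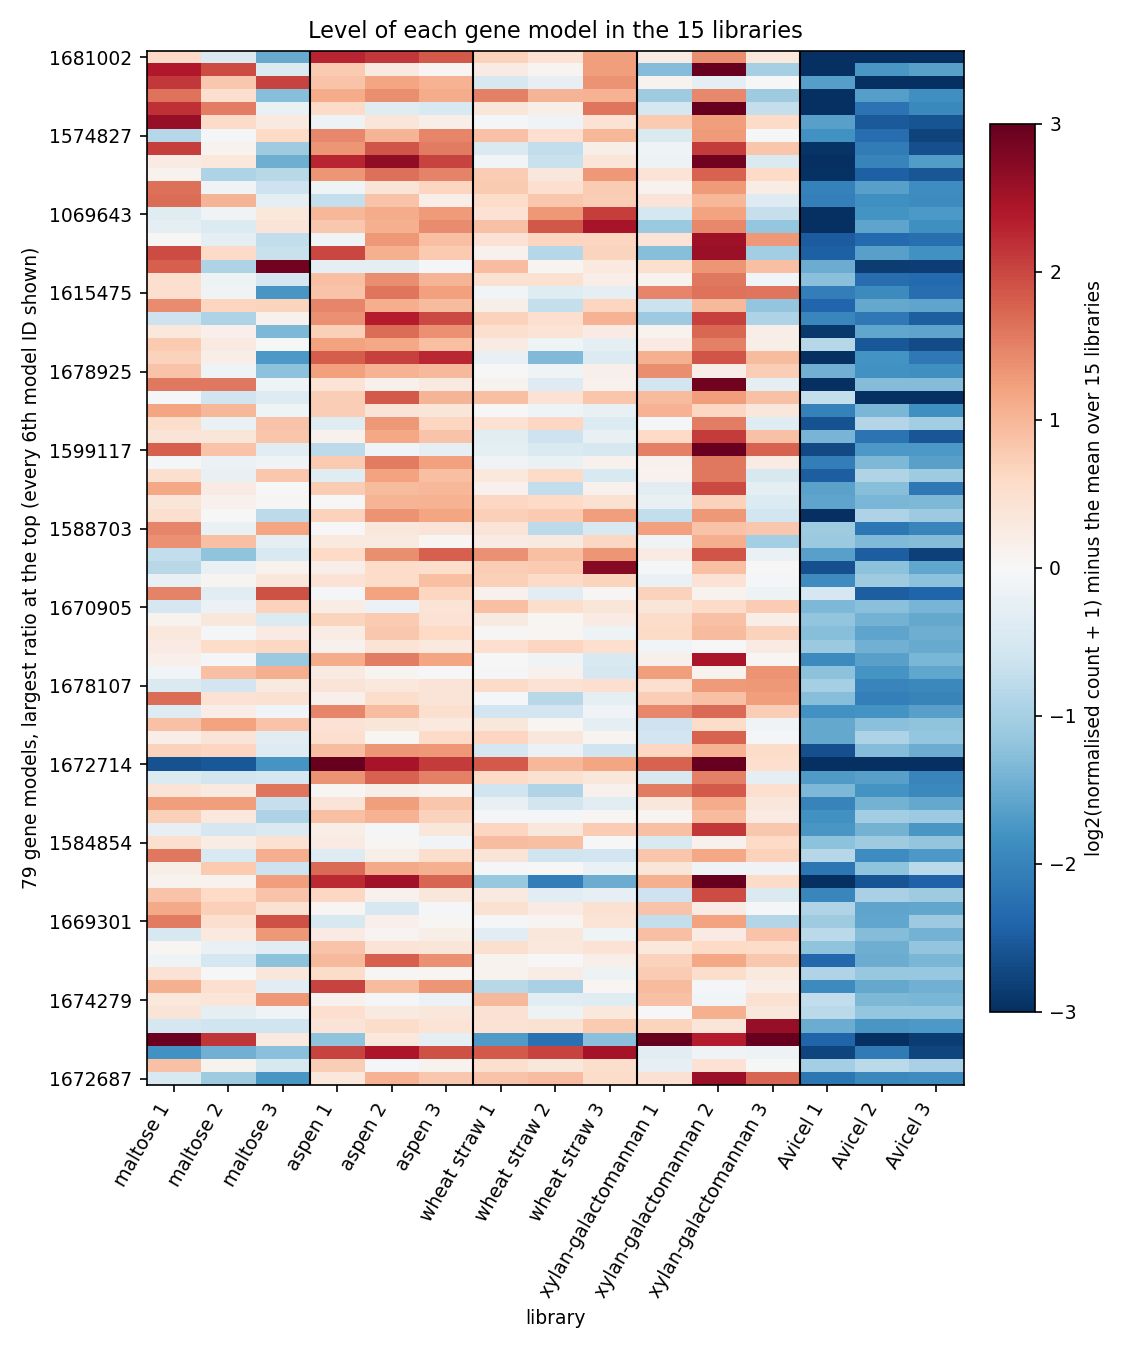
Level of the 79 gene models (rows, ordered from the largest ratio at the top to the smallest at the bottom) in the 15 libraries (columns, separated by carbon source). Colour is log2(normalised count + 1) minus the row's mean over the 15 libraries and is capped at 3 in either direction. The 3 Avicel columns are the lowest in every row by the selection, and xylan-galactomannan 2 is the highest of the other 12 columns in 31 rows.

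Model 1681002, of 1629 bases, had the largest ratio, 7.22, which was 4.61 without maltose 1. Its normalised counts were 639, 651 and 666 in the Avicel libraries, 26733, 23782 and 19568 on aspen, 8919, 7389 and 12994 on wheat straw, 6525, 14471 and 6823 on xylan-galactomannan and 8105, 4090 and 1921 on maltose. The Avicel libraries were nearly equal, the narrowest spread of any member, and the aspen libraries lay above all others without overlap. Its log2 fold change on Avicel was -5.18 ± 0.51 (SE) against aspen and -2.87 ± 0.46 against maltose.

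Models 1675136 and 1648421, of 2361 and 2395 bases, had ratios of 5.92 and 5.41 and uneven replicates. Model 1648421 had 1750, 5001 and 6086 normalised counts on Avicel, 105867, 67516 and 20328 on maltose, 34420, 18120 and 16855 on aspen, 30028, 26237 and 70554 on wheat straw and 16307, 285641 and 14190 on xylan-galactomannan. A single library, xylan-galactomannan 2, was therefore the highest of all and stood far above the other libraries of its group. Model 1675136 had 357, 2039 and 2210 on Avicel against 2787, 66757 and 3453 on xylan-galactomannan, with the same library highest and Avicel 1 lowest. In both models xylan-galactomannan 2 exceeded the mean of its group's other libraries by 18.7-fold (1648421) and 21.4-fold (1675136), the widest such gaps in the set. Without this library the ratios were 3.56 (1648421) and 2.03 (1675136).

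In models 1598059 and 595207 the Avicel libraries were ordered the other way, with Avicel 1 the highest. Model 1598059 had 283, 81.2 and 85.6 normalised counts on Avicel and 3912, 1567 and 3652 on maltose, where it was highest. Its xylan-galactomannan libraries, at 963, 741 and 910, were the lowest group outside Avicel and gave the ratio of 5.81, which was 10.4 without Avicel 1. Model 595207 had 654, 351 and 334 on Avicel, 12292, 3008 and 2417 on maltose and 1809 to 4831 in the other 9 libraries, so its high maltose mean came from maltose 1.

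Models 1589166 (ratio 5.58), 1574827 (4.80) and 459899 (4.78) completed the 8 largest ratios. The ratio of 1589166 was 2.16 without xylan-galactomannan 2, since its libraries on that carbon source had 506, 2911 and 507 normalised counts. All 3 had their highest mean on aspen, at 2473, 4633 and 702 normalised counts, against 235, 391 and 39.5 on Avicel. The wheat straw mean of 1589166, at 2455, was nearly equal to its aspen mean. In 1574827 and 459899 the aspen libraries overlapped with those of xylan-galactomannan. Model 459899 was among the lowly expressed members, with 29.1, 53.1 and 36.4 in the Avicel libraries and 109 in maltose 3, the lowest of its other libraries.

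**Figure D3:**
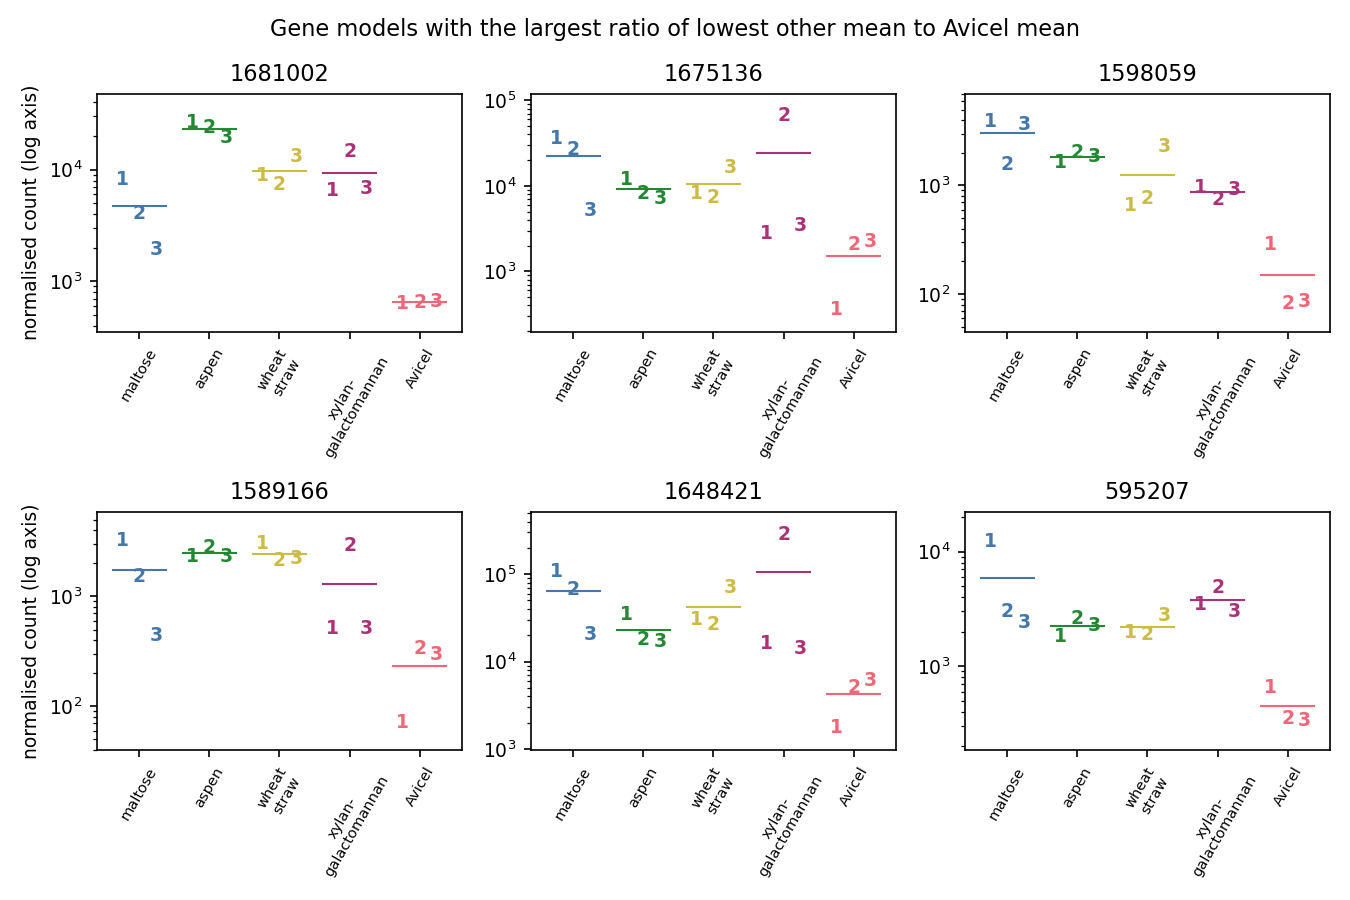
Normalised counts (y axis, log scale) of the 6 gene models with the largest ratio of lowest other mean to Avicel mean, by carbon source (x axis). Each digit is a library named by its replicate number and each dash is the mean of 3 libraries. Avicel 1 is the lowest Avicel library in 1681002, 1675136, 1589166 and 1648421 and the highest in 1598059 and 595207. Xylan-galactomannan 2 is the highest library of its group in every panel except 1598059, by the widest gaps in 1675136 and 1648421.

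The members spanned a wide range of expression. Averaged over the 5 group means and divided by the length of the model, levels ran from 136 to 73509 normalised counts per kilobase, with a median of 2275. The highest was 1578428, at 73509 per kilobase, followed by 1563062 (55545), 1672714 (39284) and 1577481 (31444). In 53 members the mean exceeded 1000 normalised counts and in 13 it exceeded 10000.

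Model 1578428, of 1203 bases, had 19142, 7518 and 7570 normalised counts on Avicel and 185700, 28381 and 400347 on maltose. Its aspen libraries had 44008, 44202 and 52023, its wheat straw libraries 102189, 57155 and 65511 and its xylan-galactomannan libraries 75692, 135868 and 101162. The maltose libraries alone spanned more than the range of the other 3 groups, and both the highest and the lowest of the 12 libraries outside Avicel were grown on maltose. Its ratio was 4.10, or 6.20 without Avicel 1.

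Model 1563062, of 1422 bases, had 15488, 20341 and 17099 normalised counts on Avicel and 197356, 57838 and 40694 on maltose, where replicate 1 stood alone. It had group means of 101241 ± 10234 on wheat straw, 98629 ± 85928 on maltose, 97888 ± 47770 on xylan-galactomannan and 79520 ± 20571 on aspen (SD, n = 3). Its 4 means lay within 1.27-fold of each other, the narrowest range in the set, and at least 4.51-fold above Avicel. Without maltose 1 the range was 2.05-fold and the smallest distance to Avicel 2.79-fold. Model 1603546, of 1560 bases, had even levels, with 17169 ± 1704 on aspen, 14699 ± 1803 on xylan-galactomannan, 19684 ± 2698 on maltose and 20746 ± 1234 on wheat straw against 5559 ± 874 on Avicel.

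The other leading members of each carbon source differed in their highest group. Models 405748 and 1600249 were highest on maltose, at 32445 ± 19952 and 26199 ± 13086 normalised counts, against 4755 ± 3992 and 6328 ± 534 on Avicel. The ratio of 405748 was 2.69, or 5.22 without Avicel 1, and that of 1600249 was 2.73, or 1.68 without xylan-galactomannan 2. Model 1577481, of 423 bases, was highest on aspen, at 31319 ± 10200 against 1774 ± 313 on Avicel, with a ratio of 3.41, or 2.27 without xylan-galactomannan 2. Model 1013872 had 28931 ± 30118 on xylan-galactomannan, of which 63697 came from replicate 2 and 10804 and 12291 from the others, against 6854 ± 2265 on Avicel. Model 1670905 was led by wheat straw, at 3737 ± 740, closely followed by xylan-galactomannan, at 3641 ± 525, against 968 ± 52.2 on Avicel.

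The Avicel libraries of the members were less alike than those of most gene models. The highest Avicel library was a median of 1.72 times the lowest among members, against 1.33 over the 9011 gene models at the floor. The widest spreads were 7.73-fold in 1596179, with 4631, 704 and 599 normalised counts, 6.82-fold in 1594384, with 10.7, 58.0 and 72.7, and 6.51-fold in 1679440, with 413, 2687 and 2380. In each of these Avicel 1 stood alone, above the others in 1596179 and below them in 1594384 and 1679440. The ratio of 1679440 was 2.78, or 1.77 without xylan-galactomannan 2. The narrowest spreads after 1681002 were 1.11-fold in 1670905, with 957, 1025 and 922, and 1.13-fold in 1584854, with 140, 157 and 144.

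Spread between replicates was larger for the members in the other groups as well. The median coefficient of variation over 3 libraries was 41.6% on maltose, 19.3% on aspen, 19.0% on wheat straw, 44.0% on xylan-galactomannan and 27.5% on Avicel. Over the 9011 gene models at the floor it was 16.7%, 13.3%, 7.92%, 20.0% and 15.2% in the same order. In xylan-galactomannan 2, 36 of the 79 members exceeded 2 times both other libraries of the group, against 5.97% of the 9011 gene models. In maltose 3, 21 members were below 0.5 times both other libraries, against 2.61% of the 9011, and in Avicel 1 this held for 14 members against 6.80%. These shares were not tested, since members of the set share their libraries. The selection also reads means that include these libraries, so the shares are not free of it. Without xylan-galactomannan 2, 66 of the 79 members still met the conditions.

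**Figure D4:**
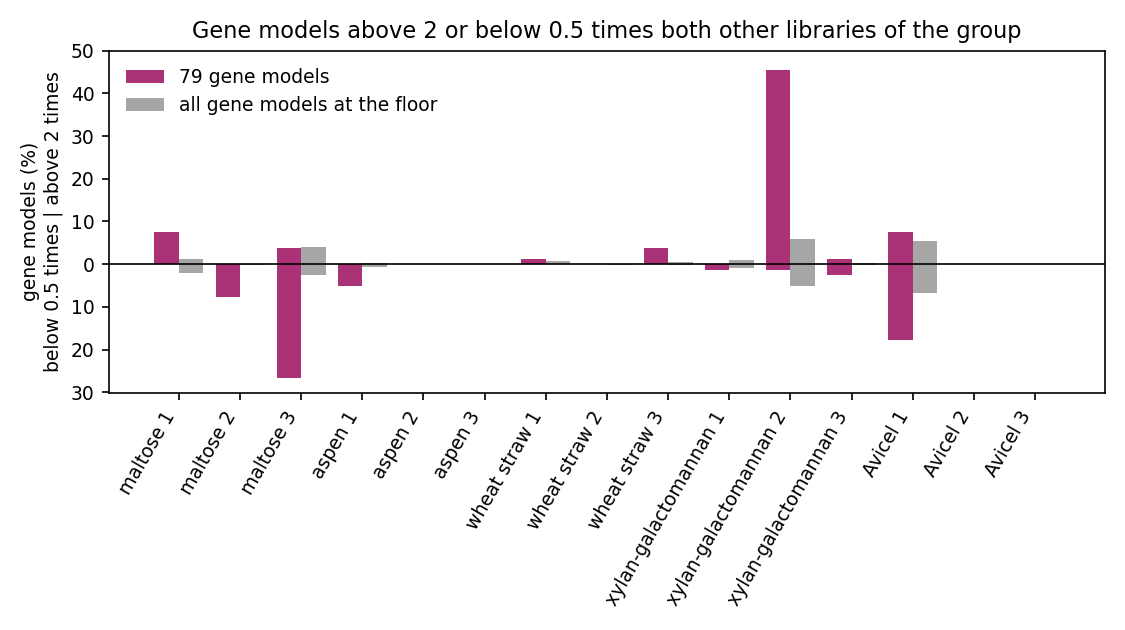
Percent of gene models (y axis) that exceeded 2 times both other libraries of their group (bars upwards) or fell below 0.5 times both (bars downwards), for each library (x axis). Purple bars are the 79 members and grey bars all 9011 gene models at the floor of 100. The tallest purple bar is xylan-galactomannan 2 (36 of 79) and the deepest is maltose 3 (21 of 79).

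Members varied together only weakly. Across the 12 libraries outside Avicel, the correlation of log2 levels between pairs of members had a median of 0.21 over 3081 pairs, against 0.0051 between pairs of all gene models at the floor. Without xylan-galactomannan 2 the median over 11 libraries was 0.12. The closest pairs were 1587943 with 1562317 (r = 0.99), 1069643 with 1547658 (0.97) and 1588703 with 1673129 (0.95), and these stood at 0.98, 0.97 and 0.96 without that library. Over the 12 libraries, 4.09% of member pairs exceeded 0.8, close to the 3.48% among pairs of all gene models at the floor. The points share libraries and 4 carbon sources, and the values are a description.

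Members differed in which carbon source gave their highest level. The counts below were not made for all gene models, and the selection reads the same means, so they describe the members alone. The highest mean was on aspen in 33 members, xylan-galactomannan in 23, maltose in 13 and wheat straw in 10. Without xylan-galactomannan 2 the counts were 36, 17, 16 and 10. The lowest mean outside Avicel was on wheat straw in 32 members, maltose in 29, aspen in 10 and xylan-galactomannan in 8, and without xylan-galactomannan 2 on xylan-galactomannan in 27. The 4 means outside Avicel lay within 2-fold of each other in 25 members and more than 4-fold apart in 17, up to 32.2-fold in 1672714.

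The other 4 carbon sources were compared with each other in a single edgeR quasi-likelihood fit of all 15 libraries, with p-values adjusted by Benjamini-Hochberg over the 11724 gene models tested, all 79 members included. Calls required an adjusted p below 0.05 and a log2 fold change beyond 1 in either direction. Avicel is not a group in these comparisons, but its libraries enter the scaling and the estimate of spread behind the p-values. The selection limits the differences among the 4 groups through its floor, its ratio and the limit on the largest mean, and does not fix their direction. Of the 79 members, 41 were called in at least 1 of the 6 comparisons, a share near the 48.9% of all gene models tested, and 38 were called in none. Comparisons with a shared group are not independent of each other.

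**Figure D5:**
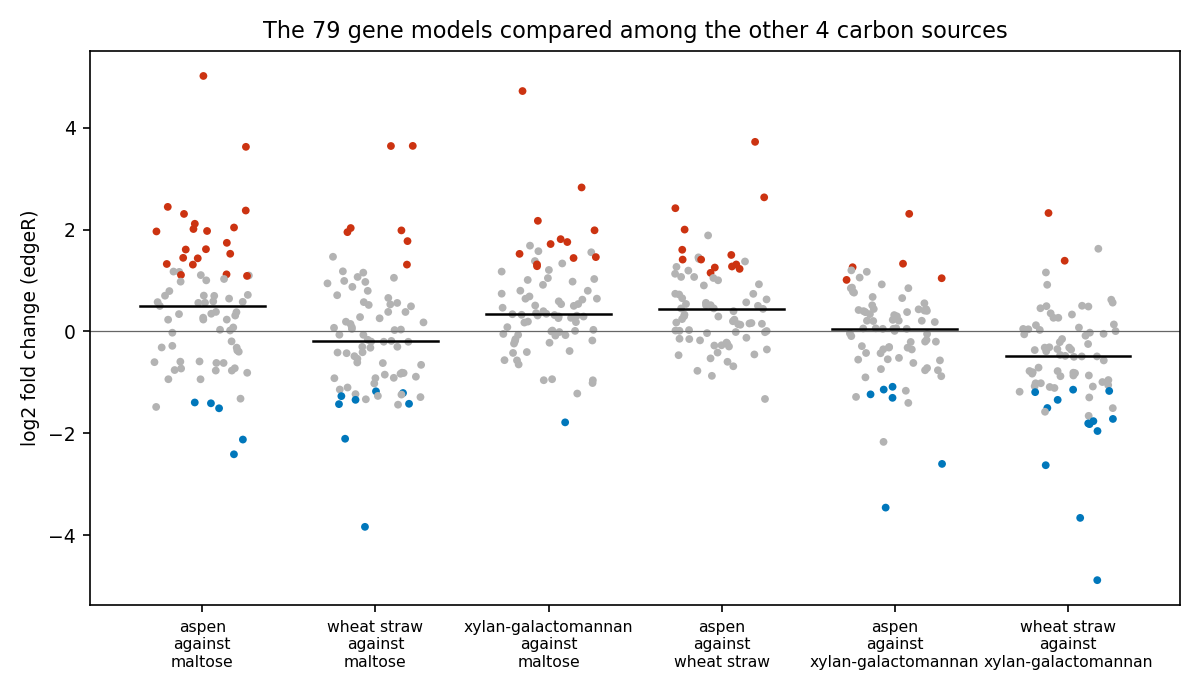
Log2 fold changes of the 79 gene models (y axis, edgeR) in the 6 comparisons among maltose, aspen, wheat straw and xylan-galactomannan (x axis), each for the first-named group against the second. Each point is a gene model, red where called higher, blue where called lower and grey where not called, and the black line is the median of the 79. Medians run from -0.49 for wheat straw against xylan-galactomannan, which moved to -0.0034 without xylan-galactomannan 2, to 0.50 for aspen against maltose.

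On aspen against maltose, 21 members were called higher and 5 lower, where 14.4% of all gene models tested were called higher and 13.9% lower. The median log2 fold change of the members was 0.50, against 0.0050 over all gene models. Under scaling by library size alone, which moved the median of all gene models in this comparison to 0.38, 28 members were called higher and 2 lower. Without aspen 1, 16 members were called in all in place of 26.

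Model 1672714, of 423 bases, changed most in this comparison. It had 57100, 30353 and 23443 normalised counts on aspen and 19489, 10927 and 12412 on wheat straw, and 18849, 64020 and 7821 on xylan-galactomannan, against 896, 940 and 1606 on maltose and 317, 427 and 657 on Avicel. The maltose libraries lay far below every other library outside Avicel and just above the Avicel ones. It was higher on aspen than on maltose by a log2 fold change of 5.02 ± 0.71 (SE, adjusted p = 0.000112, edgeR), on xylan-galactomannan by 4.72 ± 0.70 (adjusted p = 0.000705, edgeR) and on wheat straw by 3.64 ± 0.66 (adjusted p = 0.00135, edgeR). Without xylan-galactomannan 2 its value on that carbon source was 3.52. This model is on both the aspen and the wheat straw list of the study, which were chosen on these libraries, so its direction is not independent evidence.

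Model 1612788, of 684 bases, was high on both lignocellulosic substrates. Its normalised counts were 3616, 4756 and 3335 on aspen and 3188, 3609 and 5002 on wheat straw. On xylan-galactomannan they were 707, 832 and 803, on maltose 251, 328 and 372 and on Avicel 130, 204 and 131. The libraries fell into 4 levels without overlap, with aspen and wheat straw together at the top. Against maltose the log2 fold change was 3.63 ± 0.25 on aspen (adjusted p = 8.07e-07, edgeR) and 3.64 ± 0.25 on wheat straw (adjusted p = 9.58e-07, edgeR), and against xylan-galactomannan it was 2.31 ± 0.23 on aspen (adjusted p = 1.21e-05, edgeR) and 2.33 ± 0.23 on wheat straw (adjusted p = 2.06e-05, edgeR). These calls held on leaving out each of the 15 libraries in turn. The model is on the study's wheat straw list, chosen on these libraries.

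Model 1594384, of 970 bases, had 1149, 1490 and 965 normalised counts on aspen, 280, 294 and 84.1 on maltose and 223, 148 and 301 on wheat straw. Its aspen libraries lay above all maltose and wheat straw libraries, while xylan-galactomannan 2, at 1754, exceeded them. The log2 fold change on aspen was 2.45 ± 0.83 against maltose (SE, adjusted p = 0.0276, edgeR) and 2.42 ± 0.82 against wheat straw (adjusted p = 0.0420, edgeR). The call against maltose was lost without maltose 2, maltose 3, aspen 1 or aspen 2 (adjusted p from 0.0521 to 0.0876). The call against wheat straw was lost without any of 8 libraries, namely maltose 2, Avicel 2, each wheat straw and each aspen library (adjusted p from 0.0527 to 0.136), and under scaling by library size alone (adjusted p = 0.0521).

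Among the 5 members lower on aspen than on maltose was 1677098, of 1824 bases, which stood out on xylan-galactomannan. It had 23268, 9733 and 18734 normalised counts there, 14532, 8456 and 2328 on maltose, 822, 2378 and 1573 on aspen, 579, 400 and 791 on wheat straw and 359, 227 and 264 on Avicel. The aspen and maltose libraries overlapped slightly, since aspen 2 exceeded maltose 3, and the wheat straw libraries lay only just above Avicel. Its log2 fold change was -2.41 ± 0.59 on aspen against maltose (adjusted p = 0.00469, edgeR) and -3.84 ± 0.63 on wheat straw against maltose (adjusted p = 0.000673, edgeR), or -1.76 and -3.18 without maltose 1. Against xylan-galactomannan it was -3.46 ± 0.61 on aspen (adjusted p = 0.000722, edgeR) and -4.89 ± 0.66 on wheat straw (adjusted p = 0.000155, edgeR).

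The abundant model 1578428 was lower on aspen than on maltose by a log2 fold change of -2.12 ± 0.68 (adjusted p = 0.0212, edgeR). This call was lost without maltose 3 (log2 fold change -1.21, adjusted p = 0.138) and without any of the aspen libraries (adjusted p from 0.0525 to 0.0652), and in the fit of the 6 libraries alone (adjusted p = 0.0721). Model 1669301 had 117, 182 and 170 normalised counts on aspen against 485, 232 and 623 on maltose, with no overlap, and a log2 fold change of -1.51 ± 0.49 (adjusted p = 0.0216, edgeR). It lost the call without maltose 3, aspen 1 or aspen 3 (adjusted p from 0.0510 to 0.0823) and under scaling by library size alone (adjusted p = 0.0701). The ratio of 1669301 was 2.24, or 1.35 without xylan-galactomannan 2.

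On wheat straw against maltose, 7 members were called higher and 8 lower, where 9.80% of all gene models tested were called higher and 8.15% lower. The members' median was -0.19 on the log2 scale, against -0.0025 over all gene models. Under scaling by library size alone, with a median of all gene models of 0.29, 13 were called higher and 3 lower, so the balance of directions depended on the scaling. Without wheat straw 2, 7 were called higher and 2 lower, and without wheat straw 3, 4 higher and 5 lower.

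Model 1685267, of 1184 bases, had 369, 383 and 1484 normalised counts on wheat straw, 123, 192 and 238 on maltose and 218, 413 and 222 on xylan-galactomannan. Wheat straw 3 stood alone at the top, and the other wheat straw libraries overlapped with xylan-galactomannan. The log2 fold change on wheat straw was 2.03 ± 0.53 against maltose (SE, adjusted p = 0.0110, edgeR) and 1.39 ± 0.52 against xylan-galactomannan (adjusted p = 0.0449, edgeR). Without wheat straw 3 the values were 1.04 (adjusted p = 0.0689) and 0.40 (adjusted p = 0.450). The call against xylan-galactomannan was also lost without maltose 2, Avicel 3, xylan-galactomannan 1 or 3 or any of the aspen libraries (adjusted p from 0.0554 to 0.130), and in the fit of the 6 libraries alone (adjusted p = 0.111).

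Model 1575641, of 834 bases, was set apart by a low level on wheat straw. It had 1215, 631 and 946 normalised counts there, against 2876, 2867 and 6373 on maltose, 12634, 15339 and 8921 on aspen and 5551, 26029 and 3983 on xylan-galactomannan, and 279, 440 and 493 on Avicel. All wheat straw libraries lay between the Avicel libraries and the rest. The log2 fold change was 3.72 ± 0.64 on aspen against wheat straw (adjusted p = 0.00117, edgeR), -3.66 ± 0.64 on wheat straw against xylan-galactomannan (adjusted p = 0.000802, edgeR) and -2.11 ± 0.60 on wheat straw against maltose (adjusted p = 0.0172, edgeR). The value against xylan-galactomannan was -2.33 without xylan-galactomannan 2, and the call against maltose was lost without maltose 3, wheat straw 2 or wheat straw 3 (adjusted p from 0.0563 to 0.0703).

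Model 595207 was called lower on wheat straw than on maltose by -1.43 ± 0.51 (log2, SE, adjusted p = 0.0462, edgeR), a call that rested on maltose 1. Without that library the value was -0.29 (adjusted p = 0.495). It was also lost without any of the aspen or wheat straw libraries, Avicel 2 or 3, or xylan-galactomannan 1 or 3 (adjusted p from 0.0542 to 0.133), under scaling by library size alone (adjusted p = 0.0900) and in the fit of the 6 libraries alone (adjusted p = 0.122).

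On xylan-galactomannan against maltose, 12 members were called higher and 1 lower, where 5.87% of all gene models tested were called higher and 2.79% lower. The members' median log2 fold change was 0.35, against 0.042 over all gene models, and 57 of the 79 values were above 0. Both the direction and the balance rested on xylan-galactomannan 2. Without it the median was -0.036, 38 values were above 0, and 10 members were called higher and 7 lower. Without the 3 libraries that stood apart, 10 were called higher and 12 lower. Fitted on the 6 libraries of these carbon sources alone, 4 were called higher and 1 lower.

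Model 1672687, of 2013 bases, had 2405, 10508 and 5854 normalised counts on xylan-galactomannan and 1281, 837 and 517 on maltose, without overlap. The log2 fold change was 2.83 ± 0.45 (adjusted p = 0.00111, edgeR), or 2.21 without xylan-galactomannan 2, and the call was lost in the fit of the 6 libraries alone (adjusted p = 0.0507). Model 1707539, of 1227 bases, had 2411, 1960 and 9237 on xylan-galactomannan against 1045, 1008 and 999 on maltose. The difference was 2.17 ± 0.44 (adjusted p = 0.00542, edgeR) and 1.12 without xylan-galactomannan 3, the library that stood above its group, and the call was lost in the fit of the 6 libraries alone (adjusted p = 0.102).

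The only member called lower on xylan-galactomannan was 1598059, by -1.79 ± 0.55 (log2, SE, adjusted p = 0.0427, edgeR), with the values given above. This call was lost without any of 8 libraries, namely maltose 1, maltose 3, each xylan-galactomannan and each aspen library (adjusted p from 0.0554 to 0.116).

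On aspen against wheat straw, 13 members were called higher and 0 lower by edgeR, where 5.89% of all gene models tested were called higher and 7.14% lower. At an unadjusted p under 0.05, 22 members were higher and 2 lower, and DESeq2 called 19 higher and 1 lower. The members' median was 0.44 on the log2 scale, against 0.029 over all gene models, and 57 of 79 values were above 0. The number called was 7 without aspen 2, 22 without xylan-galactomannan 2 and 23 in a fit of the 6 libraries alone.

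After 1575641, described above, the largest difference between aspen and wheat straw was that of 1563146, of 735 bases. It had 1147, 1359 and 1563 normalised counts on aspen and 281, 129 and 244 on wheat straw. The aspen libraries lay above those of wheat straw, and above those of maltose (529, 374 and 97.4), and overlapped with xylan-galactomannan (688, 1209 and 633). The log2 fold change on aspen against wheat straw was 2.63 ± 0.53 (adjusted p = 0.00305, edgeR), a call that held on leaving out each library in turn.

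On aspen against xylan-galactomannan, 5 members were called higher and 6 lower, where 11.5% of all gene models tested were called higher and 14.7% lower. The medians were 0.051 for the members and -0.019 for all gene models. Under scaling by library size alone, with a median of all gene models of 0.42, 9 members were called higher and 2 lower. Without xylan-galactomannan 2 the median of the members was 0.70, and 22 members were called higher and 4 lower. Without the 3 libraries that stood apart the counts were 24 and 5. The number called in all moved from 11 to 4 without aspen 1, and to 7 without each of Avicel 2, Avicel 3, aspen 2, aspen 3, wheat straw 1, wheat straw 2 and xylan-galactomannan 3.

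The leading model 1681002 was higher on aspen than on xylan-galactomannan by 1.33 ± 0.44 (log2, SE, adjusted p = 0.0247, edgeR), a call lost without xylan-galactomannan 1, xylan-galactomannan 3, aspen 1 or aspen 2 (adjusted p from 0.0536 to 0.0898). Model 1601061, of 1584 bases, had 579, 388 and 370 normalised counts on aspen and 228, 163 and 163 on xylan-galactomannan, without overlap. The difference was 1.26 ± 0.36 (adjusted p = 0.0126, edgeR), and the adjusted p was 0.0588 without aspen 1.

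Model 1599117, of 1330 bases, was higher on xylan-galactomannan than on either lignocellulosic substrate. It had 8489, 23055 and 9992 normalised counts there, 1717, 2698 and 2439 on aspen and 2393, 2190 and 2125 on wheat straw, with no overlap. The log2 fold change was -2.60 ± 0.50 on aspen (adjusted p = 0.00118, edgeR) and -2.63 ± 0.50 on wheat straw (adjusted p = 0.00135, edgeR), or -1.99 and -2.03 without xylan-galactomannan 2. On maltose this model had a mean of 5986 ± 4006 (SD, n = 3). Against maltose it was also called lower on aspen, by -1.40 ± 0.48 (adjusted p = 0.0294, edgeR), and on wheat straw, by -1.42 ± 0.48 (adjusted p = 0.0367, edgeR). Model 1593340 had 1707, 1850 and 1787 on aspen against 4826, 5942 and 2334 on xylan-galactomannan. Its difference of -1.30 ± 0.39 (adjusted p = 0.0164, edgeR) lost the call without xylan-galactomannan 2 (log2 fold change -0.97, adjusted p = 0.0684) and without aspen 1 (adjusted p = 0.0516), and also under scaling by library size alone (log2 fold change -0.87, adjusted p = 0.0585).

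On wheat straw against xylan-galactomannan, 2 members were called higher and 13 lower, where 9.60% of all gene models tested were called higher and 11.9% lower. The members' median was -0.49 on the log2 scale, against -0.039 over all gene models, and 22 of the 79 values were above 0. Under scaling by library size alone, with a median of all gene models of 0.32, 3 members were called higher and 8 lower. The excess of lower values rested on xylan-galactomannan 2. Without this library the median was -0.0034, 39 values were above 0, and 10 members were called higher and 12 lower, and without the 3 libraries that stood apart 12 and 14. The members with the largest differences, 1612788 and 1685267 among those higher and 1677098, 1575641 and 1599117 among those lower, are described above.

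The gene lists of the study held few of these members. Of its 91 genes selected on aspen, 7 had all Avicel libraries below the other 12, 3 met every condition and 1 was a member (1672714). Of its 88 genes selected on wheat straw, 3 had all Avicel libraries below the other 12, 3 met every condition and 2 were members (1672714 and 1612788). Over all 11782 gene models in the normalised table, 334 had all Avicel libraries below the other 12 and 81 met every condition. Models meeting every condition were thus more frequent on both lists than over all gene models. Among 9 facilitator transporters 1 met every condition, among 6 cytochromes P450 1 did, and among 11 enzymes of chitin, wall and glycoprotein glycans 0 did, and those that did are the models left out by name. The study chose the lists on libraries analysed here, Avicel included. The difference in frequency is therefore not independent of the selection and was not tested.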

How the data were processed

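RNA-seq of mycelium (15 libraries) was used, grouped by the carbon source in the labels. The authors deposited counts per gene model, made by aligning 150-base paired reads with TopHat2 and counting with HTSeq, of which the sources used here name neither the versions nor the strand setting. The normalised table deposited with them is a linear signal, each count over its library's size factor (DESeq 1.5, per the labels). It holds 11782 of the 14165 gene models, and the 2383 others had at most 74 counts over all libraries. The authors also deposited the length of each model in bases (other). Columns without a matching sample numbered 0. Even values made up 66.5 to 76.5% of each library's counts of 1 to 20, so division by 2 was tried.

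Counts were fitted with edgeR 4.0.16 in R 4.3.3 (filterByExpr, TMM, a mean per group, robust quasi-likelihood), leaving 11724 gene models at a common biological coefficient of variation of 0.281. Alternatives included DESeq2 1.42.0. The fit was tested on simulated data. Library totals of 24209984 to 50428442 counts and 3 libraries per group limit the precision.

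The members and lists were chosen with earlier results of these data known. Models named are those with the 8 largest ratios or the 8 highest mean levels, the 3 leading members of each carbon source, those at the thresholds, those with the 3 widest and 3 narrowest Avicel spreads, the 3 largest called differences in each direction of each comparison, and the 4 left out. Models 1562317, 1587943, 1069643, 1547658, 1588703 and 1673129 were named after their values were seen.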

Additional observations from a re-analysis of the deposited data

How the results depend on the processing

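The number of members was 122 under scaling by library size alone (71 of them among the 79), 163 at a ratio of 1.5 and 31 at a ratio of 3. It was 80 under TMM scaling, 87 and 72 at floors of 50 and 200, 96 with no limit on the largest mean, 106 with no condition on single libraries, and 67 to 132 on leaving out 1 library at a time. Without Avicel 1, xylan-galactomannan 2 and maltose 3 together it was 108, with 54 shared.

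On leaving out 1 library at a time, the number of members called ran from 16 to 29 on aspen against maltose (26 with all libraries), 9 to 19 on wheat straw against maltose (15), 10 to 17 on xylan-galactomannan against maltose (13), 7 to 22 on aspen against wheat straw (13), 4 to 26 on aspen against xylan-galactomannan (11) and 11 to 22 on wheat straw against xylan-galactomannan (15). Without the 3 libraries that stood apart it was 30, 25, 22, 24, 29 and 26 in the same order. DESeq2 called 20 members on aspen against wheat straw and 23 on wheat straw against maltose. A fit of the 6 libraries compared called 23 on aspen against wheat straw and 5 on xylan-galactomannan against maltose. The causes were not tested.

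Most same-numbered libraries did not deviate together, with a correlation above 0.1 in 3 of 30 pairs and a range of -0.37 to 0.40. The highest values were those of Avicel with xylan-galactomannan, at 0.40 for number 1 and 0.40 for number 2, while number 3 of these groups was at -0.14. Libraries of different numbers were not compared, so these values cannot decide whether the numbers mark shared cultures or batches. The main fit used no pairing. With a replicate block the counts called were 26, 13, 11, 13, 9 and 16 in the order above. Of 690 recomputed values of the 30 named differences, 619 kept their direction and their side of the threshold, 71 lost the call and 0 reversed. Leaving out 1 library lost 57 of these, the fit of 6 libraries 5, library size alone 4, the replicate block 3 and the 3 libraries together 2.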
